A study of Pseudopodoces humilis with 2 samples.

Results

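Of the 15394 genes measured in muscle and liver of the ground tit (Pseudopodoces humilis), a ground-living songbird of the Tibetan plateau, 124 stood at least 16-fold higher in muscle while still giving a signal in liver. They were chosen on the scale of log2(RPKM + 1), as genes with a difference of 4 or more, muscle minus liver, and a liver value above 0. RPKM counts the reads on a gene relative to its length in kilobases and to the size of the library. The values that chose the genes are therefore those of this contrast, and the tissue differences below are a description with no test. The rule took 0.806% of all genes. Without the condition on liver it took 148, or 0.961%, and the other 24 were listed at 0 in liver. In the opposite direction 106 of the 15394 genes were 16-fold higher in liver, with no condition on muscle, so this count stands beside the 148.

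The series, titled as transcriptome data for gene annotation, holds 1 muscle sample and 1 liver sample of total RNA. Its labels give the species and the tissue, and do not say which muscle was taken, how many birds were used or how old they were. The muscle value is the mean of 2 sequencing libraries, whose whole-number reads could be recovered from the deposited values. The larger muscle library held 86472618 reads and the smaller one 47542891, against 46313678 for liver. The labels do not say whether each muscle library came from a bird of its own, and the spread between them may be technical. With 1 sample per tissue no difference between tissues was tested. Counting intervals below are exact 95% intervals of the reads, Poisson for levels and conditional binomial for ratios of muscle to liver. They cover counting error only.

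Skeletal muscle fibres are packed with sarcomeres, the repeating contractile units of myosin, actin and their regulators, and with the calcium pumps and energy enzymes that drive them. Many genes for the muscle forms of these proteins are known to be transcribed at very high levels in muscle and hardly at all in hepatocytes. Hepatocytes instead make plasma proteins and metabolic enzymes. The files used here pair no gene ID with a name, so none of the 124 genes could be tied to such a role, and the muscle and liver labels could not be checked against marker genes. IDs are printed only for the gene with the highest muscle level and the gene with the largest difference. All others are described by their scaffold, an assembled stretch of the genome, and by their rank. In bulk tissue, fewer cells of a type and less RNA per cell cannot be told apart.

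**Figure D1:**
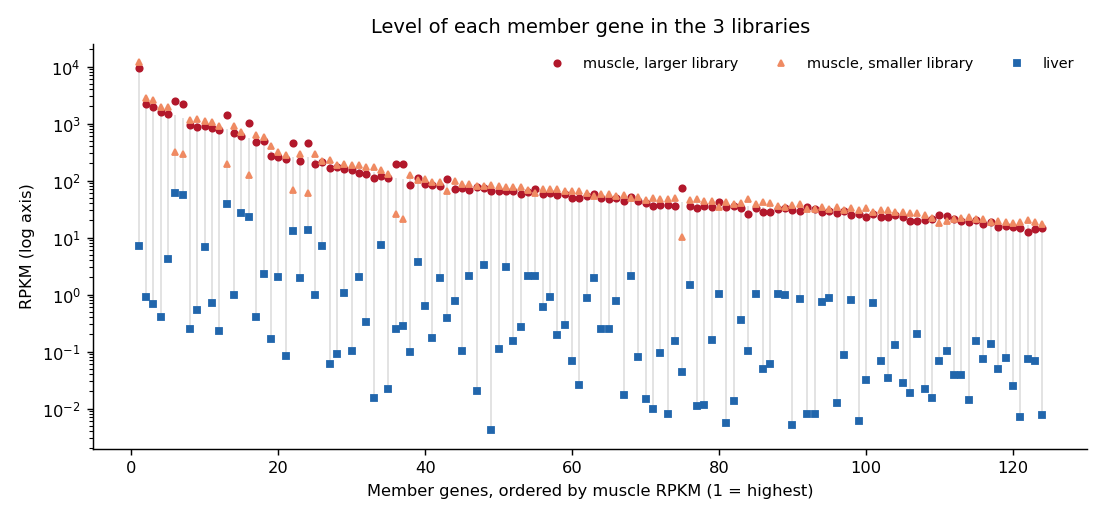
RPKM (log axis) of each of the 124 genes in the larger muscle library (dark red circles), the smaller muscle library (orange triangles) and liver (blue squares), ordered by muscle RPKM. The muscle values run close together except for 9 genes, while the liver values spread from 0.00415 to 59.6 RPKM, and those of the 20 genes lowest in muscle are all at or under 0.207 RPKM. The rule caps the liver level of each gene by its muscle level.

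The muscle levels of the 124 genes ran from 16.1 to 10661 RPKM with a median of 56.4, against a liver range of 0.00415 to 59.6 RPKM with a median of 0.203. Over all genes the medians were 0.727 RPKM in muscle and 0.302 RPKM in liver. No gene under 15 RPKM in muscle can pass the rule, so the high muscle levels follow from it. In muscle 39 of the genes stood at 100 RPKM or more and 10 at 1000 or more, where the whole table held 162 and 17. The difference lay between 4 and 5 for 58 genes, between 5 and 6 for 33, between 6 and 7 for 14, between 7 and 8 for 7, and above 8, which is 256-fold, for 12. How many genes pass depends on the scale: with a pseudocount of 5 RPKM in place of 1, 40 of the 124 stayed past 16-fold, and 81 did after centring on genes detected in both tissues, whose median difference was 0.57. Just inside the rule stood a gene on scaffold 12566 at 138 RPKM in muscle and 7.53 RPKM in liver, a difference of 4.03. Just outside it stood a gene on scaffold 2631 at 22.1 RPKM in muscle and 0.445 RPKM in liver, a difference of 3.998.

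**Figure D2:**
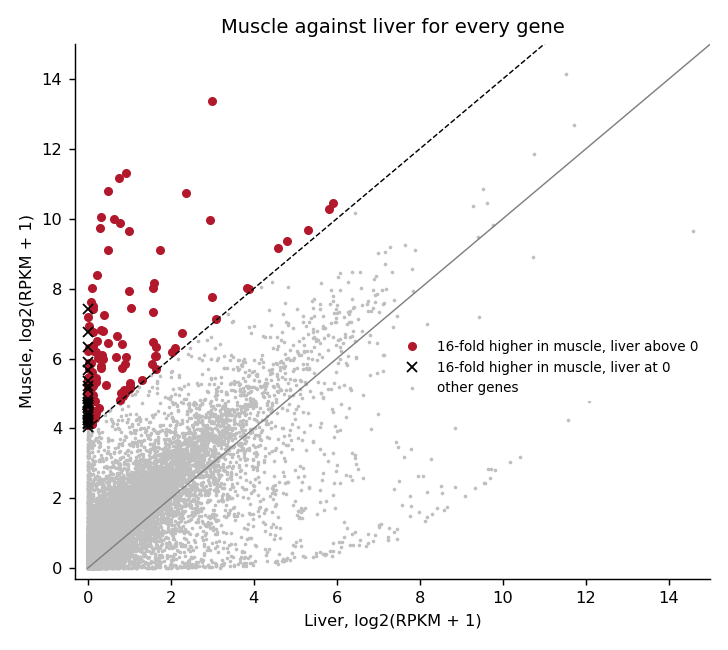
Muscle against liver on the scale of log2(RPKM + 1) for every gene. Red circles are the 124 genes, crosses the 24 genes listed at 0 in liver and grey points all others; the dashed line marks a difference of 4 and the grey line equal values. Most red circles stand near the left edge, where liver is under 1 RPKM, and a short row of them follows the dashed line up to 59.6 RPKM in liver.

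The highest muscle level belonged to evm.TU.scaffold22797.29, gene 29 on scaffold 22797. Its larger muscle library gave 9444 RPKM (9429 to 9459) and its smaller one 11878 RPKM (11855 to 11900), against 7.04 RPKM (6.50 to 7.62) in liver. It ranked 2 of all genes in muscle by RPKM and 1 by reads, but 1226 in liver, and it alone made up 7.31% of the muscle RPKM sum. The largest difference, 10.41, belonged to evm.TU.scaffold1358.1, the only gene listed on scaffold 1358. Its level was 1935 RPKM (1915 to 1955) in the larger muscle library and 2629 RPKM (2598 to 2660) in the smaller, against 0.681 RPKM (0.274 to 1.40) in liver, from 7 reads. It ranked 6 in muscle by RPKM but 143 by reads, at a recovered length of 222 bases, and 5770 in liver.

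The 12 genes beyond 256-fold lay on 10 scaffolds and all ranked within the 41 highest of muscle by RPKM, at 337 to 10661 RPKM. The pseudocount allows so large a difference only at a high muscle level, so the ranks of these genes follow largely from the cut. Their liver levels were 0.167 to 7.04 RPKM, from 7 to 619 reads. In each of them the larger muscle library was the lower one, by 0.28 to 0.59 on the log2 scale. The gene on scaffold 174213 had 2208 and 2830 RPKM in the larger and smaller muscle library and 0.909 RPKM (0.392 to 1.79) in liver, from 8 reads. With a recovered length of 190 bases, it ranked 5 in muscle by RPKM but 152 by reads. The highest gene on scaffold 14695 had 1594 and 1945 RPKM in the muscle libraries and 0.410 RPKM (0.320 to 0.518) in liver, from 70 reads. Without the pseudocount its ratio to liver was 3889 (95% counting interval 3078 to 4988) in the larger and 4745 (3755 to 6087) in the smaller muscle library. For the highest gene on scaffold 9109 the same ratios were 354 (319 to 395) and 459 (413 to 512), at 4.19 RPKM in liver. These 2 genes of nearly the same muscle level thus differed by about an order of magnitude in liver.

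The liver signal behind the condition of the rule was often a handful of reads. In liver 17 of the 124 genes had a single read and 9 had 2 or 3, so that 26 genes were at or under 3 reads, the limit that a count of 0 allows. At this depth those 26 genes and the 24 listed at 0 in liver cannot be told apart by liver level. The muscle medians were 35.6 RPKM for the 26, whose liver level was at most 0.360 RPKM, and 24.4 RPKM for the 24. The median liver level was 1.51 RPKM (0.167 to 59.6) among the 20 genes highest in muscle and 0.0451 RPKM (0.00714 to 0.207) among the 20 lowest. The rule caps the liver level of each gene by its muscle level, so the low liver levels of the 20 lowest follow in part from it. Liver was under 0.1 RPKM for 48 genes, between 0.1 and 1 for 46, between 1 and 10 for 23 and at 10 RPKM or more for 7. The difference of 39 genes came within 0.1 of the largest value their muscle level allows with a pseudocount of 1 RPKM. For these the size of the difference is set almost wholly by the muscle level.

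A group of 30 genes was detected in liver at 1 RPKM or more. Their median level was 167 RPKM in muscle, against 2.72 RPKM in liver, and their differences had a median of 4.47, against 5.09 for all 124. The rule lets a gene have this much liver signal only at a higher muscle level. The most liver reads, 5235, belonged to a gene on scaffold 22634, at 214 RPKM in the larger and 220 RPKM in the smaller muscle library, against 7.04 RPKM in liver. A gene on scaffold 23036 followed with 4850 liver reads, at 597 and 708 RPKM in the muscle libraries and 26.9 RPKM (26.2 to 27.7) in liver. It ranked 25 in muscle and 386 in liver. Of the 7 genes at 10 RPKM or more in liver it was the only one whose muscle libraries stood within 2-fold of each other.

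The muscle libraries split the 124 genes into 115 whose libraries stood within 2-fold of each other, as they did for 94.4% of genes, and 9 that were 6.51 to 9.29 times higher in the larger library. Over all genes with 20 or more reads in each library, 151 of 11761 (1.28%) were at least 4-fold higher in the larger library and 0 at least 4-fold lower. This split was seen in the data and was not part of the rule. It rests on recovered reads, and how well these are recovered for genes with unequal libraries was not tested. At the muscle level of the 124 genes, 16.1 RPKM or more, there were 898 genes, of which 15 were at least 4-fold higher in the larger library. These 15 were the 9 genes, 2 of the genes listed at 0 in liver and 4 others.

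**Figure D3:**
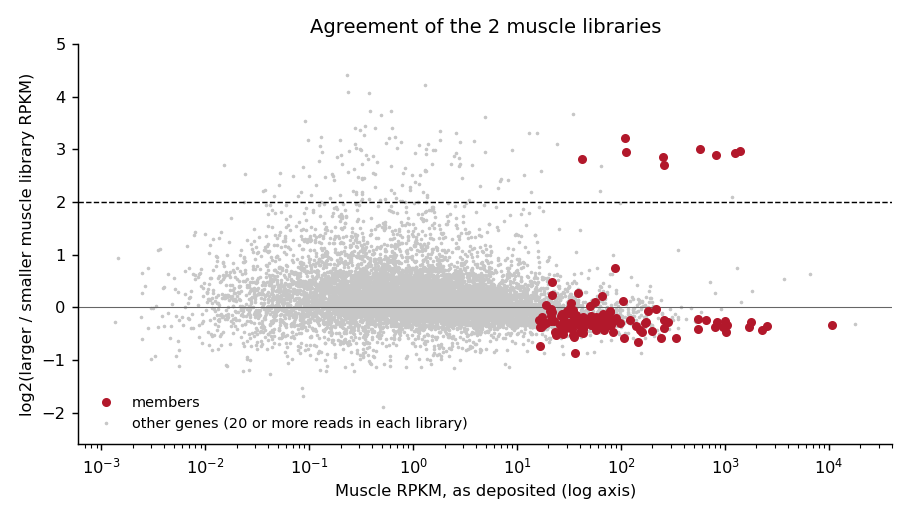
Log2 ratio of the larger to the smaller muscle library against muscle RPKM (log axis) for genes with 20 or more reads in each library, with the 124 genes in red. The dashed line marks 4-fold. A row of 9 red points lies between 2.70 and 3.22, and most other red points lie just below 0.

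Of the 9 genes, 6 stood at 13.3 RPKM or more in liver, and these had much the same proportions in all libraries. Their larger muscle library was 32.4 to 43.9 times the liver level and their smaller one 4.45 to 5.44 times. On scaffold 19255 the gene had 2486 RPKM (2467 to 2504) in the larger and 319 RPKM (310 to 328) in the smaller muscle library, against 59.6 RPKM (55.7 to 63.7) in liver. The gene on scaffold 18869 had 2212 and 291 RPKM in the muscle libraries, against 55.4 RPKM in liver. The other 4 lay on scaffolds 8577, 17417, 2426 and 10522, with 448 to 1440 RPKM in the larger and 61.8 to 195 RPKM in the smaller muscle library, against 13.3 to 38.6 RPKM in liver. The 6 genes have recovered lengths of 204 to 630 bases, ranked 196 to 690 in liver, and against the smaller muscle library alone none of them was 16-fold higher than liver (differences of 2.08 to 2.40). Whether any of the 6 share sequence with another gene was not tested.

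The other 3 of the 9 genes were low in liver. On scaffold 20348 the gene had 199 and 25.9 RPKM in the larger and smaller muscle library, against 0.249 RPKM in liver. On scaffold 2068 the gene had 196 and 21.1 RPKM, against 0.287 RPKM in liver. On scaffold 8533 the gene had 72.9 and 10.4 RPKM, against 0.0446 RPKM in liver, from 1 read. The first and second of these kept a 16-fold difference against the smaller library alone (4.43 and 4.10), and the gene on scaffold 8533 did not (3.45).

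In both muscle libraries 107 of the 124 genes were 16-fold higher than liver. Without the condition on liver, 0.806% of all genes were. This share equals that of the rule, but only 107 of the genes it counts are among the 124. These counts reuse the values of the rule. The larger library alone kept 114 and the smaller alone 117. Without the condition on liver, 0.942% of all genes passed against the larger library and 0.968% against the smaller. With liver above 0, 122 genes passed against the larger library and 127 against the smaller. The 7 genes lost with the smaller library were all among the 9 above. The 10 lost with the larger library were near the threshold there, the lowest at 3.65. Of the 115 genes within 2-fold, 105 were lower in the larger library and 10 higher, with a median log2 ratio of -0.29, larger minus smaller. Among all 124, with the 9 genes included, 19 (15.3%) were higher in the larger library, with a median of -0.27. Of the 774 other genes at the same muscle level, 36.3% were higher in the larger library, with a median of -0.09. These shares are across genes of the same libraries and were not tested.

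**Figure D4:**
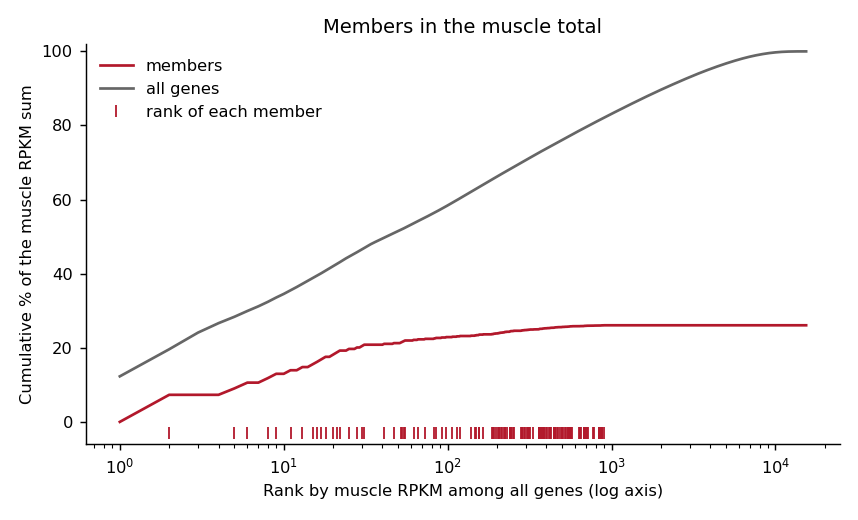
Cumulative share of the muscle RPKM sum along the rank of genes by muscle RPKM (log axis), for the 124 genes and for all genes. Ticks mark the rank of each of the 124 genes, which run from 2 to 898, and their curve levels off at 26.1% of the sum.

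The 124 genes made up 26.1% of the muscle RPKM sum and 0.276% of the liver sum. The larger muscle library gave a share of 25.8% and the smaller one 26.3%. By recovered reads in place of RPKM it was 18.0% and 21.1% of the reads in genes of these libraries, against 0.101% in liver. Recovered reads are lower bounds for some genes, so these shares by reads are approximate. The 9 genes above held 5.79% of the larger and 0.772% of the smaller library by RPKM, and the other 115 held 20.03% and 25.6%. The near-equal totals of the libraries were thus made up of unequal parts. Within the 124, the highest gene took 28.0% of their muscle RPKM, the 5 highest 49.8% and the 20 highest 81.5%, and the other 104 genes took 4.82% of the whole muscle sum.

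By RPKM rank in muscle, 5 of the 10 highest genes, 12 of the 20 highest, 31 of the 100 highest and 95 of the 500 highest belonged to the 124. By recovered reads these counts were 5, 12, 36 and 70. In liver none of the 124 was among the 100 highest by RPKM and 5 were among the 500 highest. The median rank was 288.5 in muscle and 8531 in liver, and 71 of the 124 ranked beyond the middle of the liver table. Of the 951 genes at 15 RPKM or more in muscle, 13.0% belonged to the 124, so the large majority of genes this high in muscle were less than 16-fold above liver or listed at 0 there.

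RPKM divides by the length of the gene. The recovered lengths of the 124 genes ran from 139 to 109713 bases with a median of 3275, against 8503 for all genes. For the 32 of the 124 genes that are alone on a scaffold with assembled muscle transcripts, the recovered length was a median 0.793 of the span assembled in muscle assembly 2, introns included. For 14 of the 32, with a single exon in both muscle assemblies, span and spliced length are the same. For most of the 17 spliced in both, the recovered length exceeded the spliced bases of muscle assembly 2. On scaffold 18175 it was 3364 bases, against 338 spliced and a span of 3365. On scaffolds 10522 and 21421 it was below the spliced bases. The length may therefore be the genomic span, which limits comparisons of level between genes. Divided into 5 equal length classes, the table held 42 of the 124 genes in the shortest class, then 42, 22, 11 and 7 in the longest. Of the genes at 15 RPKM or more in muscle, these were 10.7%, 13.6%, 13.0%, 16.7% and 46.7%, the last being 7 of 15 genes.

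The 7 longest genes stood far higher in the muscle total by reads than by RPKM. The gene on scaffold 22693 has the greatest recovered length, 109713 bases. It had 15.4 and 18.4 RPKM in the larger and smaller muscle library, against 0.0250 RPKM in liver, and it ranked 863 in muscle by RPKM but 33 by reads. On that scaffold the muscle assemblies 2 and 3 each held a transcript of 145 exons, spanning 114415 and 114098 bases on the minus strand, and the liver assembly had at most 21 exons in a transcript. The files do not tie that transcript to the gene. The gene on scaffold 15407, of 67562 bases, had 27.2 and 34.3 RPKM in the muscle libraries and 0.0125 RPKM in liver, and ranked 503 by RPKM but 30 by reads. The other 5 ranked 449 to 539 in muscle by RPKM and 37 to 49 by reads. The place of a long gene in the muscle total thus depended on the measure. Recovered lengths and reads are lower bounds where a gene's reads in all libraries share a common factor, while its RPKM is not affected.

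The 124 genes lay on 106 of 2679 scaffolds. A single one was found on 90 scaffolds, 2 on 14 and 3 on 2, which put 34 genes on a scaffold with another. Scaffolds with a single listed gene held 33 of the 124 (26.6%), against 10.8% of all genes. On scaffolds of 20 or more genes lay 61 of the 124 (49.2%), against 54.9% of all genes. Genes are numbered along each scaffold, and 10 of the 124 had another of them as the next number, in 5 pairs. Only 91 of the 124 had a listed neighbour at all. No such count for other sets of genes stands beside it, so whether the 10 are many was not tested.

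The pair with the highest levels lay at the end of the listed genes of scaffold 30. The first of the pair had 930 and 1173 RPKM in the larger and smaller muscle library, against 0.254 RPKM (0.214 to 0.301) in liver. Its neighbour had 763 and 926 RPKM, against 0.228 RPKM (0.169 to 0.299) in liver. Their differences of 9.71 and 9.43 were close, and the gene before them had a difference of 3.53, at 10.7 RPKM in muscle and 0.00790 RPKM in liver. Scaffold 22535 has 3 listed genes, of which 2 belonged to the 124. They had 19.2 and 177 RPKM in the larger library, 27.6 and 186 RPKM in the smaller, and 0.0190 and 0.0924 RPKM in liver, and the remaining gene had a difference of 2.89. On scaffold 22438 the pair had 31.9 and 78.3 RPKM in muscle, against 0.00802 and 0.0208 RPKM in liver, and their muscle libraries stood within 0.08 of each other on the log2 scale. The gene before that pair was not higher in muscle, with 2.10 RPKM in muscle and 3.19 RPKM in liver. The remaining pairs stood closer to the threshold, with differences of 4.90 and 4.96 on scaffold 22087 and of 4.44 and 4.60 on scaffold 3599.

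**Figure D5:**
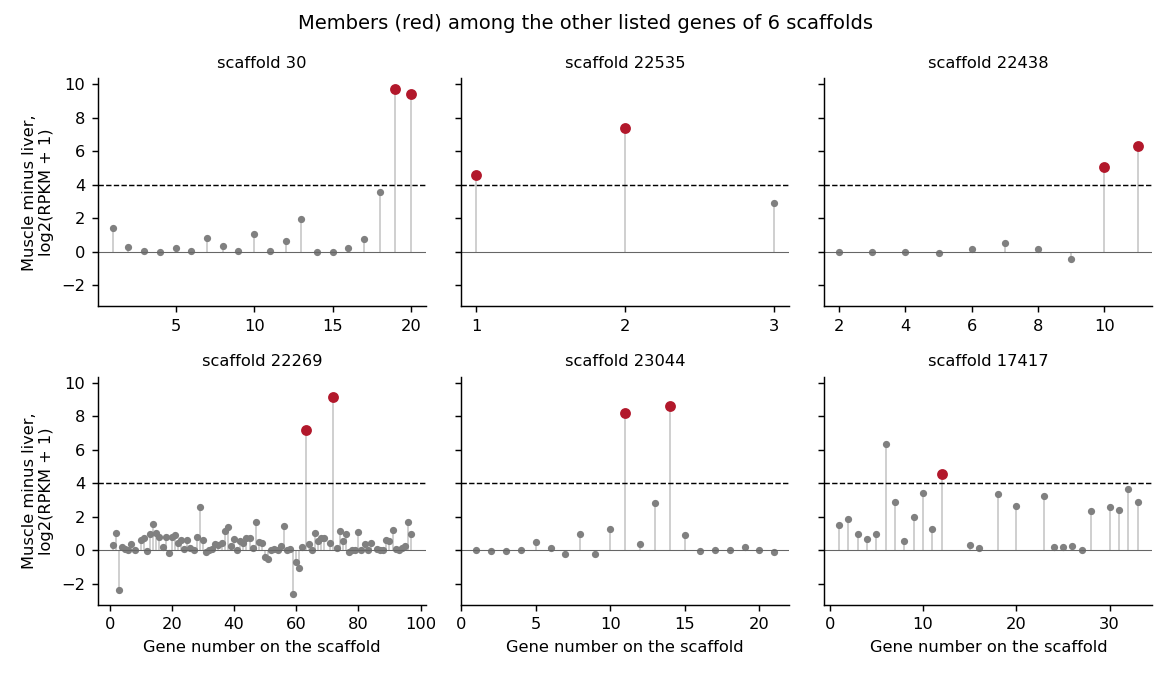
Difference between muscle and liver on the scale of log2(RPKM + 1) for every listed gene of 6 scaffolds, by gene number, with the 124 genes in red. The dashed line marks the threshold of 4. Red points stand next to each other on scaffolds 30, 22535 and 22438, lie apart on scaffolds 22269 and 23044, and 1 stands alone on scaffold 17417, where the grey point above the line is a gene listed at 0 in liver.

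Other scaffolds held 2 or 3 of the genes with listed genes between them. On scaffold 14695 the 3 genes stood at 1770, 52.3 and 57.6 RPKM in muscle, against 0.410, 0.254 and 0.0677 RPKM in liver. Between the first and the second of them lay 5 genes with a median difference of 1.18 and a highest of 2.20. Between the second and the last lay 1 gene with a difference of 3.85, just under the threshold. On scaffold 23044 the pair stood at 337 and 551 RPKM in muscle, against 0.167 and 0.404 RPKM in liver, with 2 genes between them whose highest difference was 2.85. On scaffold 22269 the pair stood at 144 and 945 RPKM in muscle, against 0.0155 and 0.705 RPKM in liver, and the 7 genes between them had a median difference of 0.53. The 7 genes between the pair of scaffold 6236 had a median difference of 0.02. The first and last of these had 0.0195 and 0.0126 RPKM in muscle, against 0 and 0.00146 RPKM in liver. At such levels the pseudocount of 1 RPKM makes any difference small, so a small difference does not mean equal levels. The differences of the genes in between thus varied from scaffold to scaffold, with the lowest median of these on scaffold 6236. Within scaffold 14695 they also varied from gap to gap.

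Most direct neighbours of the 124 genes had small differences between the tissues, on a scale where the pseudocount of 1 RPKM keeps differences of low genes small. There were 147 neighbours outside the 124, with a median muscle level of 0.981 RPKM, against 0.727 RPKM over all genes. Of the 147, 15 (10.2%) were at least 4-fold higher in muscle, where 4.49% of all genes were. Of the 15123 genes that were neither, 3.65% were. The median difference was 0.42 for the neighbours, with quartiles of 0.08 and 1.09, and 0.21 for the genes that were neither. These shares were not tested against each other. Of the 24 genes listed at 0 in liver, 2 were direct neighbours. The pair on scaffold 22385 consisted of a gene with 1 liver read and a gene with 0, at 25.4 and 21.5 RPKM in the larger and 18.2 and 14.6 RPKM in the smaller muscle library, both with a recovered length of 309 bases.

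On 3 of the 106 scaffolds, not counting those with a single listed gene, every listed gene was at least 4-fold higher in muscle. These were scaffold 22385 with 6 genes, scaffold 22535 with 3 and scaffold 21533 with 2. The 6 genes of scaffold 22385 had 8.38 to 25.4 RPKM in the larger and 4.83 to 18.2 RPKM in the smaller muscle library, and 5 of them were listed at 0 in liver. Recovered lengths there were 309 bases for 5 genes and 165 for the last. On scaffold 17417, 12 of the 26 listed genes were at least 4-fold higher in muscle. Its gene among the 124 had 1010 RPKM (1002 to 1018) in the larger and 125 RPKM (121 to 129) in the smaller muscle library, against 23.0 RPKM (21.3 to 24.8) in liver. All 14 genes listed after it were higher in the larger library, with up to 19.8 RPKM there and up to 5.26 RPKM in the smaller one. In liver 12 of these 14 were listed at 0 and none had more than 1 read. Of the 11 genes listed before it, 6 were higher in the larger library and 2 were listed at 0 in liver. These scaffolds were singled out after their values were seen.

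Transcripts assembled by the authors for the same samples gave a further view of the 33 genes that are alone on their scaffold. In each muscle assembly 32 of them had a transcript on their scaffold (97.0%, Wilson 95% interval 84.7 to 99.5), against 12 in the liver assembly (36.4%, 22.2 to 53.4). Of the 1623 other genes alone on a scaffold, outside the 124 and the 24, 72.0% had one in muscle assembly 2, 64.1% in muscle assembly 3 and 50.9% in liver. Of the 93 of these at the muscle level of the 124, all had one in each muscle assembly and 92 (98.9%, 94.2 to 99.8) had one in liver. The assemblies and the table come from the same samples, so this is no replicate check, and the rule chose genes for a low liver level. The intervals treat genes as independent draws, hold no spread between samples and serve as no test. The gene with no transcript in any assembly lies on scaffold 184601, at 26.0 and 28.4 RPKM in the larger and smaller muscle library and 0.715 RPKM in liver.

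The genes with a liver transcript had more liver reads. The 12 with one had 3 to 1014 (median 130.5) and the 21 without had 1 to 14 (median 1), so the groups overlap between 3 and 14 reads. Of the 12, 8 had as many exons in liver as in muscle assembly 2 and 4 had fewer, while against muscle assembly 3 there were 7 and 5. The liver transcript had fewer spliced bases than that of muscle assembly 2 in all 12 and than that of muscle assembly 3 in 10. These comparisons set 1 transcript per scaffold and assembly side by side, which need not be the same transcript. On scaffold 19255, 1 of the 2 transcripts of muscle assembly 2 ran from position 1012 to 1749 and that of liver from 359 to 687, without overlap. The transcript of muscle assembly 3 there ran from 359 to 1170, across the positions of the liver one. On scaffold 191714 the muscle assemblies each gave 4 exons on the plus strand, from position 44 to 1026 and from 44 to 1022, and the liver assembly gave 3, from 45 to 671. That gene had 134 RPKM in the larger and 185 RPKM in the smaller muscle library, with 92 reads in liver. On scaffold 10522, home of 1 of the 9 genes with unequal muscle libraries, all assemblies gave 2 exons on the plus strand that end at position 1728. Which genome build these scaffold positions belong to is not given in the sources used here.

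Transcripts on these scaffolds had few exons, and mostly the same number in both muscle assemblies. Of the 32 genes, 29 had the same highest number of exons in both, 17 were spliced in both and 14 had a single exon in both. The most exons, 9, were found on scaffold 21590, in transcripts from position 2 to 2955 and from 2 to 2958, where the gene had 28.5 and 41.0 RPKM in the larger and smaller muscle library and 0.0607 RPKM in liver. On scaffold 174213 each muscle assembly had 1 transcript of a single exon, 220 and 238 bases long, and the liver assembly had none. A single exon gives no strand, so the direction of transcription of these genes is not known from the assemblies.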

How the data were processed

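Total RNA of 1 muscle and 1 liver sample was made into libraries with an Illumina TruSeq RNA kit, per the labels' protocols. The authors deposited a table of RPKM values per gene and tissue, and Cufflinks transcript assemblies whose score column, a Cufflinks value per transcript that the authors left in the files, was not used. TopHat is named in the submitters' processing notes. For tool versions, the counter, the annotation and the genome build, the sources used here give no name. Of all reads, 61.5% of the larger and 62.3% of the smaller muscle library and 66.7% of liver lay in genes by recovered reads. These shares are approximate, as recovered reads are lower bounds for some genes. The rows that name no gene were left out of all sums.

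The deposited RPKM values carry 15 significant digits, so the whole-number reads, length and library totals behind them were searched for, with a relative tolerance of 6e-15 and lengths up to 1000000 bases. All 15394 genes had a solution, but a fit alone does not show that the recovered reads are the true ones. The search stopped at the shortest length that fitted, so longer lengths were not examined, and genes at 0 in muscle needed no search. The search was checked on simulated data, modelled on genes with 20 or more liver reads. Genes listed at 0 in liver were not among them, so how well their lengths and reads are recovered was not tested. The deposited muscle value equals the mean of the RPKM of 2 libraries, which the files do not tie to the 2 muscle assemblies. Levels were compared as log2(RPKM + 1), muscle minus liver, with no filter on low values and no test. Share intervals are Wilson 95% intervals, read intervals exact Poisson ones and intervals of muscle-to-liver ratios conditional exact binomial ones. As the limit that a count of 0 allows, 3 reads served (0.0347 RPM in the larger muscle library, 0.0631 in the smaller and 0.0648 in liver). Library ratios used genes with 20 or more reads in each muscle library.

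The genes and the choice of comparisons were made with earlier results of these data known. IDs were printed for the gene with the highest muscle RPKM and the gene with the largest difference, and all others were described by scaffold, rank, range and count. The table held 0 columns of per-sample values without a sample. Analysis used Python 3.11.15, numpy 2.4.6, pandas 2.3.3, scipy 1.17.1, numba 0.67.0 and matplotlib 3.10.9. The alternatives were other pseudocounts, a filter on muscle level, TPM scaling, quantile normalization, centring, each muscle library alone, recovered reads, other fold thresholds and other limits on transcripts.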

Additional observations from a re-analysis of the deposited data

Results flagged for a closer look

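Reads outside the listed genes gave signal in both tissues and entered no comparison. Reads in no listed gene made up 30.6% of the muscle value and 24.3% of liver reads. Reads that overlapped several genes made up 0.217% in muscle and 0.0635% in liver. Reads aligned at more than 1 place made up 4.13% in muscle and 2.80% in liver. With 1 sample per tissue these differences were not tested, and their part in the levels of the 124 genes was not tested.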

How the results depend on the processing

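The number of genes depended on the scale: 359 passed with a pseudocount of 0.1 RPKM, 40 with 5 RPKM, 281 on the TPM scale and 81 after centring on the genes detected in both tissues, whose median difference was 0.57. Of the 124 genes, 40 were still past 16-fold with a pseudocount of 5 RPKM and 81 after centring, against 90 after quantile normalization, 121 on the TPM scale and 124 with a filter of 5 RPKM in muscle. The share of the muscle sum was 19.5% by recovered reads, 25.8% with the larger muscle library alone, 26.3% with the smaller alone, and 20.2% without the highest gene. Without the 9 genes whose muscle libraries differed, an alternative chosen after seeing the data, it was 22.8%, and 25 of the 100 highest muscle genes belonged to the set. Requiring more than 3 liver reads, also chosen after seeing the data, left 98 genes. At an 8-fold threshold 25 genes had another as the next number, and at 32-fold 4 had. Counting only transcripts of 2 or more exons, the shares on single-gene scaffolds were 51.5% and 54.5% in muscle assemblies 2 and 3 and 21.2% in liver. The cause of these changes was not tested. Liver depth limits the 26 genes at 3 liver reads or fewer. No paired analysis was possible because each tissue has 1 sample and no result comes from a test.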
